A study of Homo sapiens with 5 samples.

Results

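The matrix metalloproteinase (MMP) genes were followed in TC28a2 cells, an immortalized human chondrocyte line, by total RNA sequencing. They were taken as every protein-coding MMP gene among the 2694 genes of the deposited tables, matched by symbol, which gave 5 genes, MMP1, MMP2, MMP11, MMP13 and MMP19. The RefSeq gene table holds 23 protein-coding MMP genes, and the other 18 were not among the listed genes. After 5 days of culture, 2 libraries were made from growth medium, which held 10% fetal bovine serum, and 3 from hypertrophic medium. The latter held 1% serum and was supplemented with β-glycerophosphate at 10 mM, dexamethasone at 10 nM, ascorbic acid at 50 µg/ml, T3, a thyroid hormone, at 1 µM, the growth factors GDF-5 at 10 ng/ml and BMP-2 at 100 ng/ml, and insulin transferrin selenium-A at 1%. Because serum and all additives changed together, their separate effects cannot be told apart. All libraries came from this cell line, and the study describes its replicates in general as biological, but the labels do not say whether these libraries came from separate cultures, so the p-values measure only the spread between these libraries, which may be technical.

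Matrix metalloproteinases are zinc-dependent proteases that are made as inactive proenzymes and cut collagens, proteoglycans and other extracellular proteins after activation. Their activity is held in check by the tissue inhibitors of metalloproteinases (TIMPs). In cartilage, the collagenases MMP1 and MMP13 open the triple helix of fibrillar collagen, and MMP13, which prefers type II collagen, is widely used as a marker of chondrocyte hypertrophy.

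The deposited values are log2-transformed and RLE-normalized, with 1 value per gene and library. The listed genes appear to be those the authors had called different between the media on these same libraries, so an adjusted p only weighs the difference against the spread of replicates and is not independent support for it. In limma's moderated test with Benjamini-Hochberg adjustment over all listed genes, 99% of them had an adjusted p under 0.05. The mean was higher in hypertrophic medium for 1707 listed genes and lower for 987, with a median difference of 0.56. The median SD was 0.067 in growth medium and 0.16 in hypertrophic medium. The number of reads behind a value is unknown. Because the log2 transformation is not described further, differences are given on the log2 scale and not as fold changes of read counts. The fold change threshold and the summed marker levels given below take the values as plain log2. The transformation may also compress differences at low levels, which limits ranks by difference and comparisons of the sizes of increases. In bulk libraries, fewer cells expressing a gene and less RNA per cell cannot be told apart.

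MMP1 was the member that fell, and it fell by 3.80 on the log2 scale, while MMP2, MMP11, MMP13 and MMP19 rose by 0.65 to 0.83. All 5 members passed the test and their libraries did not overlap between the media, against 99% of the listed genes for either count. By direction, 4 members were higher, against 62.5% of the listed genes, and 1 was lower, against 36.5%. MMP1 was also the 1 member past a difference of -2, which 1.08% of the listed genes passed, and no member exceeded 2 upward, which 1.04% did. The exact permutation test over the 5 libraries (two-sided), which cannot go below p = 0.1, gave 0.1 for MMP1, MMP11 and MMP19 and 0.2 for MMP2 and MMP13.

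**Figure D1:**
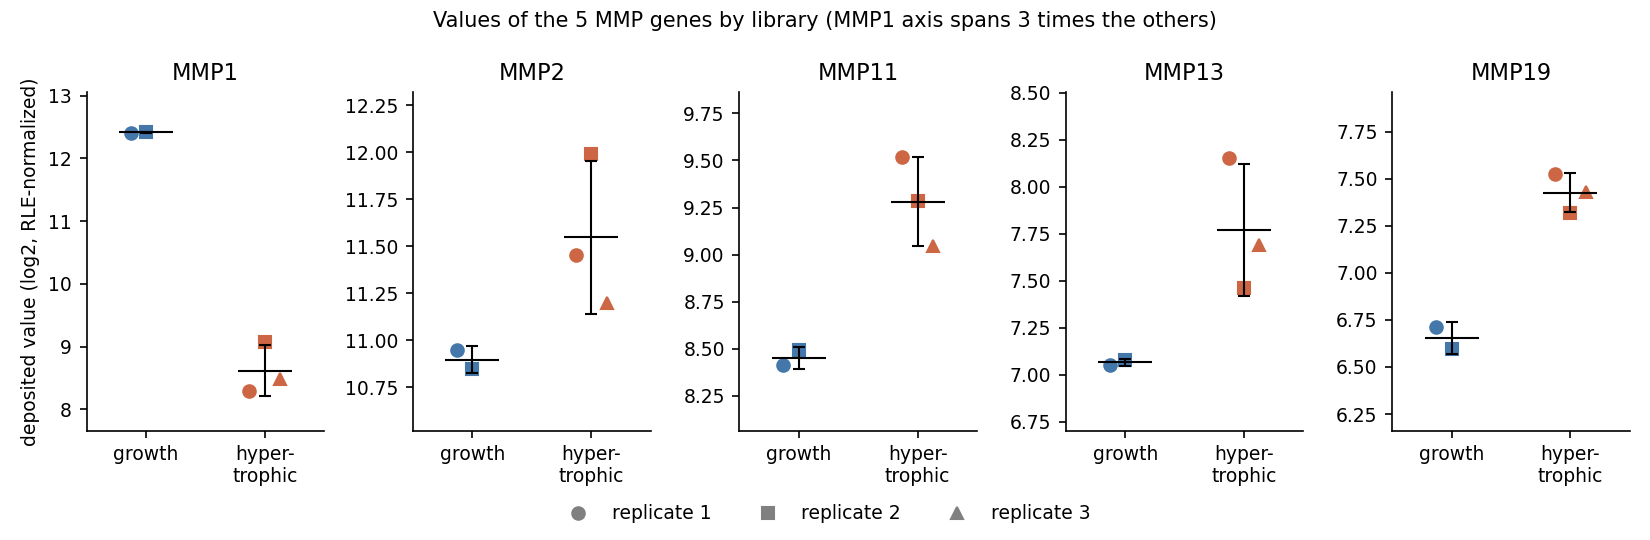
Deposited log2 values of the 5 MMP genes in each library, growth medium in blue and hypertrophic medium in orange, with marker shapes for replicate numbers and black bars for the mean ± SD (n = 2 and n = 3). MMP1 dropped from 12.41 to 8.61, and in each of the other panels all 3 hypertrophic medium libraries lay above both growth medium libraries.

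MMP1 encodes interstitial collagenase, which cleaves type I, II and III collagen. On GRCh37, the build of hg19, it lies on chromosome 11 from 102660132 to 102668891 on the minus strand, and its canonical transcript has 10 exons. It was 12.40 and 12.42 in growth medium replicates 1 and 2, and 8.29, 9.07 and 8.48 in hypertrophic medium replicates 1, 2 and 3. The 2 growth medium libraries were nearly equal, and the nearest hypertrophic medium library lay 3.34 below them. The log2 difference was -3.80 (standard error 0.21, 95% confidence interval -4.27 to -3.33, adjusted p = 4.94e-06, limma). This was rank 1 of the 987 genes with a lower mean. Within hypertrophic medium MMP1 varied more than most genes, with an SD of 0.40 that exceeded the SD of 93.9% of the listed genes. The pseudogene WTAPP1 overlaps the canonical transcript of MMP1 on the opposite strand and was not listed. Whether counting used strand is not given, so the value of MMP1 is uncertain in this respect.

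MMP13 encodes the collagenase that acts most on type II collagen, and it moved the other way. It lies on chromosome 11 from 102813724 to 102826461 on the minus strand, with 10 exons. It was 7.05 and 7.08 in growth medium and 8.15, 7.46 and 7.69 in hypertrophic medium replicates 1, 2 and 3. Replicate 1 was the highest and replicate 2 the lowest, and the gap between the nearest libraries of the media, 0.38, was smaller than the range of 0.69 within hypertrophic medium. The log2 difference was 0.70 (standard error 0.21, 95% confidence interval 0.23 to 1.17, adjusted p = 0.00998, limma), close to the median of 0.70 for the listed genes with a higher mean, and it ranked 848 of these 1707. Under median centring the difference was 0.35 and the call was lost (adjusted p = 0.116, limma).

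MMP2 encodes gelatinase A, which degrades denatured collagen and basement membrane collagen and whose proenzyme is activated at the cell surface by MMP14 together with TIMP2. It lies on chromosome 16 from 55423612 to 55540603 on the plus strand, and its canonical transcript has 13 exons. An unnamed gene model on the same strand overlaps this transcript, and MMP2-AS1 and another lncRNA on the opposite strand overlap the gene outside it. None of these was listed, and the value of MMP2 is uncertain in this respect. It was 10.95 and 10.85 in growth medium and 11.45, 11.99 and 11.20 in hypertrophic medium replicates 1, 2 and 3. Hypertrophic replicate 2 stood 0.44 above the mean of its medium, and the gap to growth medium was 0.25, the narrowest of the 5 genes. The log2 difference was 0.65 (standard error 0.21, 95% confidence interval 0.18 to 1.11, adjusted p = 0.0131, limma). It was 0.43 without hypertrophic replicate 2, and without growth replicate 2 its adjusted p was 0.0536 (limma). The call was also lost under median centring and quantile normalization. MMP2 ranked 999 of the 1707 genes with a higher mean.

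MMP11 encodes stromelysin 3, a protease that is activated inside the cell by furin and does not attack intact fibrillar collagen. It lies on chromosome 22 from 24110413 to 24126503 on the plus strand, with 8 exons in its canonical transcript. It was 8.41 and 8.49 in growth medium and 9.52, 9.28 and 9.04 in hypertrophic medium replicates 1, 2 and 3. All hypertrophic medium libraries were at least 0.55 above growth medium. The log2 difference of 0.83 was the largest increase among the members (standard error 0.17, 95% confidence interval 0.45 to 1.21, adjusted p = 0.00162, limma), and it ranked 547 of 1707.

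MMP19 encodes a protease with basement membrane proteins and cartilage proteoglycans among its substrates. It lies on chromosome 12 from 56229217 to 56236750 on the minus strand, with 9 exons. It was 6.71 and 6.60 in growth medium and 7.53, 7.32 and 7.43 in hypertrophic medium replicates 1, 2 and 3. In hypertrophic medium it had the smallest SD of the members, 0.10, which exceeded that of 25.4% of the listed genes, and in growth medium it had the largest, 0.083. The log2 difference was 0.77 (standard error 0.15, 95% confidence interval 0.43 to 1.11, adjusted p = 0.00148, limma), rank 669 of 1707. The transcribed pseudogene TMEM198B overlaps MMP19 on the opposite strand and was itself listed, with values of 7.27 and 7.42 in growth medium and 8.20, 8.30 and 7.83 in hypertrophic medium. The library kit marked strand, but whether counting used it is not given in the sources used here, which leaves the values of MMP19 and TMEM198B uncertain.

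The members did not follow a common order among the hypertrophic medium libraries. Replicate 1 was highest for MMP11, MMP13 and MMP19 and lowest for MMP1. Replicate 2 was highest for MMP1 and MMP2 and lowest for MMP13 and MMP19. Replicate 3 was lowest for MMP2 and MMP11. The deviations of MMP13 from its mean were 0.38, -0.31 and -0.08 in replicates 1, 2 and 3, and those of MMP2 were -0.09, 0.44 and -0.35.

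The size of the increases depended on how the libraries were scaled. Centring each library on its median over the listed genes lowered every difference by 0.35, which left MMP2 at 0.30 with an adjusted p of 0.189 (limma) and MMP13 short of the threshold as given above. MMP11 and MMP19 kept adjusted p under 0.05, with differences of 0.48 and 0.42. Quantile normalization gave 0.28 for MMP2 (adjusted p = 0.226, limma), 0.44 for MMP11, 0.47 for MMP13 and 0.62 for MMP19. The difference of MMP1 stayed between -4.15 and -3.64 over its 9 alternatives.

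**Figure D2:**
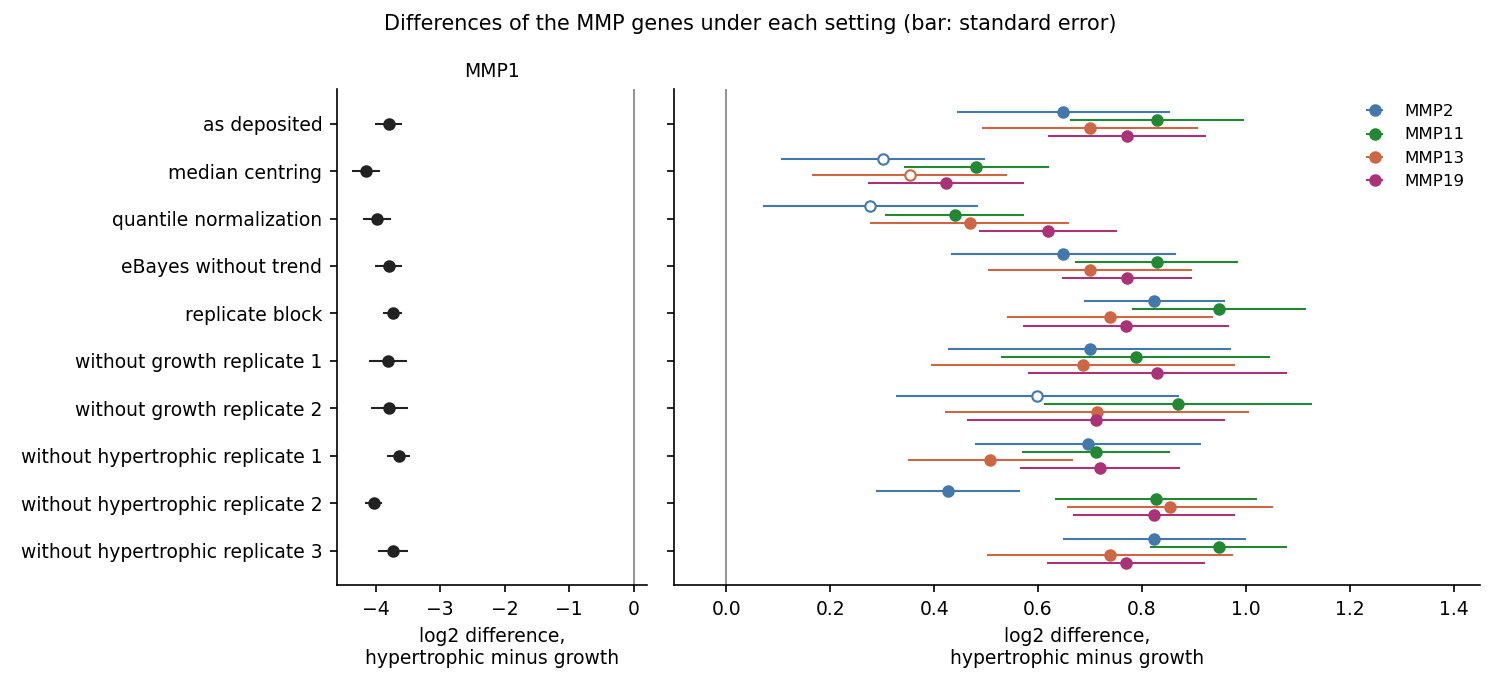
Log2 differences between the media for MMP1 (left) and the 4 rising MMP genes (right) in the values as deposited and under each alternative, with the standard error as bars and open circles where the adjusted p (limma) was 0.05 or above. Under median centring MMP2 and MMP13 are open at 0.30 and 0.35, and MMP1 lies at -4.15.

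A difference between genes within a library does not change when a library is shifted as a whole, and these differences were compared for all pairs of members. MMP1 minus MMP13 was 5.35 and 5.34 in growth medium and 0.14, 1.61 and 0.79 in hypertrophic medium replicates 1, 2 and 3, a change of -4.50. MMP1 minus the mean of the other 4 genes went from 4.14 ± 0.034 (SD, n = 2) to -0.39 ± 0.46 (SD, n = 3), a change of -4.54. For both, the exact permutation test of the 5 libraries (two-sided) gave p = 0.1, the smallest that its 10 splits allow. Of the 10 pairs of members, the 4 that include MMP1 did not overlap between the media. Each had p = 0.1 (exact permutation), and 0.25 after Benjamini-Hochberg adjustment over the 10 pairs. MMP1 fell and the other 4 members rose, each without overlap between the media. All differences with MMP1 given here therefore had to separate, and they add no support to the results of the single genes.

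The 6 pairs without MMP1 overlapped between the media. Their changes ran from -0.18 for MMP2 minus MMP11 to 0.13 for MMP11 minus MMP13, with exact permutation p of 0.5 or higher and an adjusted p of 1. The 4 increases were therefore not told apart in size by these libraries. MMP2 minus MMP13 shows the width of the spread, with 3.89 and 3.77 in growth medium against 3.30, 4.53 and 3.51 in hypertrophic medium.

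**Figure D3:**
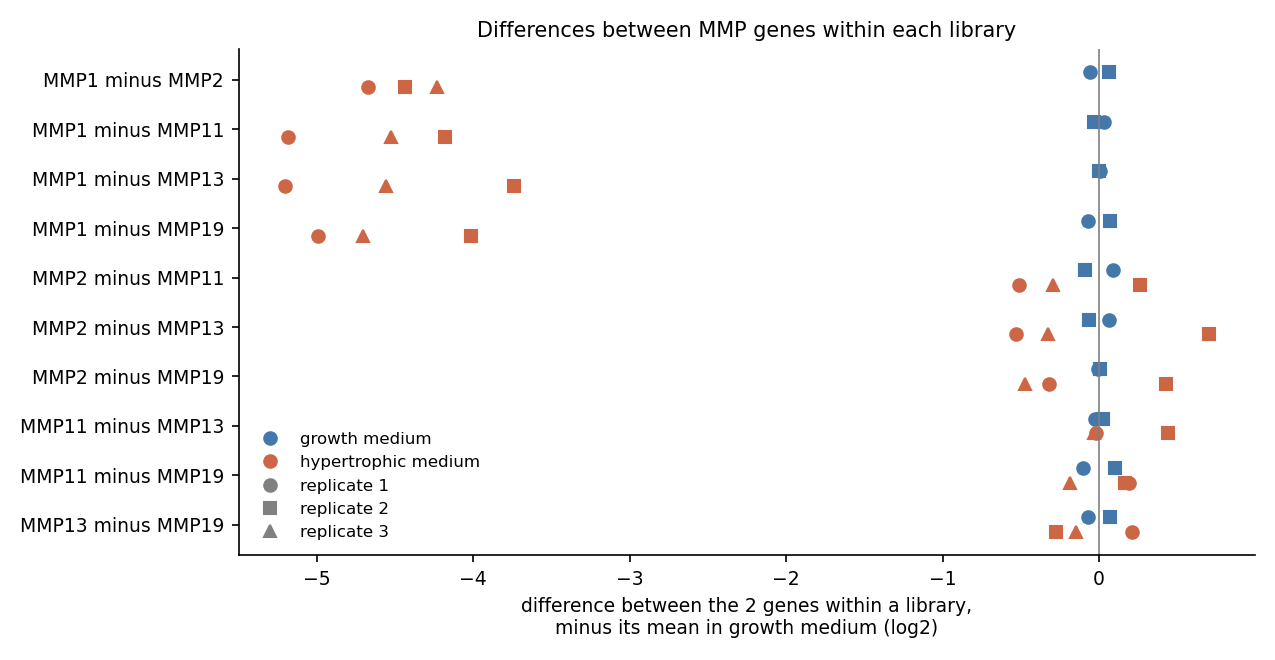
Difference between each pair of MMP genes within a library, minus its mean in growth medium (log2), with growth medium in blue, hypertrophic medium in orange and marker shapes for replicates. The 4 pairs with MMP1 lie near -4.50 in hypertrophic medium, and the 6 other pairs lie around 0 with overlapping libraries.

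To compare levels between the members, the log2 length of the canonical transcript in kilobases was subtracted from each value. The differences within a library and the summed marker levels were made without this step. In growth medium MMP1 then had the highest level of the members, 11.43 ± 0.015 (SD, n = 2), followed by MMP2 with 9.09, MMP11 with 7.28, MMP13 with 5.63 and MMP19 with 4.96. The libraries of neighbours in this order did not overlap. In hypertrophic medium MMP2 was highest, with 9.73 ± 0.41 (SD, n = 3), and lay above MMP11 in every library. MMP11 had 8.10 ± 0.24 and MMP1 7.63 ± 0.40 (SD, n = 3), and these overlapped, with 7.87 to 8.34 for MMP11 and 7.31 to 8.09 for MMP1. MMP13 with 6.33 and MMP19 with 5.73 stayed the lowest, from 6.02 to 6.71 and from 5.63 to 5.83. These levels assume the canonical transcript, and the transformation of the deposited values may compress low levels.

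MMP1 and MMP13 belong to a stretch of 9 MMP genes on chromosome 11, all on the minus strand within 435 kb. Their start sites are 158 kb apart, with MMP3 and MMP12 between them. The other 7 MMP genes of the stretch, MMP7, MMP20, MMP27, MMP8, MMP10, MMP3 and MMP12, were not among the listed genes, so the stretch held 1 gene that fell and 1 that rose. A gene can be missing from the list because a library had a zero count or because the authors did not call it, and its level is not known from these values.

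**Figure D4:**
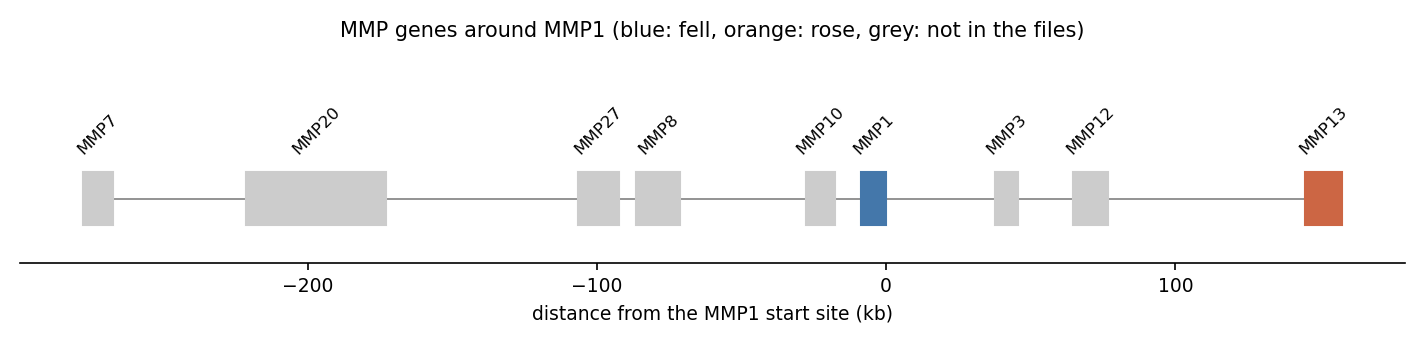
Protein-coding MMP genes around MMP1 on chromosome 11, drawn to scale as boxes by distance in kb from the MMP1 start site, with MMP1 in blue (fell), MMP13 in orange (rose) and the 7 genes that were not listed in grey. MMP13 starts 158 kb from MMP1.

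Among the inhibitors, TIMP1 and TIMP2 rose and TIMP3 fell, and these were the 3 listed of the 7 inhibitor genes looked for, where 62.5% of all listed genes were higher and 36.5% lower. TIMP1 was 10.61 and 10.63 in growth medium and 11.83, 11.33 and 11.19 in hypertrophic medium, which differs by 0.83 on the log2 scale (limma, adjusted p = 0.00227, standard error 0.18). TIMP2, which also takes part in the activation of MMP2, was 13.03 and 13.02 against 13.73, 13.72 and 13.37, which differs by 0.58 (limma, adjusted p = 0.00318, standard error 0.14). Under median centring TIMP2 had an adjusted p of 0.108 (limma). TIMP3, the inhibitor that binds to the matrix, was 11.79 and 11.86 against 11.22, 10.99 and 10.87, which differs by -0.80 (limma, adjusted p = 0.000776, standard error 0.13). In each of the 3 genes all hypertrophic medium libraries lay on the same side of both growth medium libraries. Of all listed genes, 99% likewise did not overlap between the media. The protein-coding genes SYN1 and SYN3 overlap TIMP1 and TIMP3 on the opposite strand, where strand was not stated to be used, and CEP295NL overlaps TIMP2 on the same strand, so all 3 TIMP values are uncertain in this respect.

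Set against the inhibitors within each library, MMP1 was lower relative to all 3 in every hypertrophic medium library, and the other members were higher relative to TIMP3. The exact permutation test gave p = 0.1, its smallest, for each of these 7 differences. In all of them except MMP1 minus TIMP3, the genes compared moved in opposite directions, each without overlap between the media. Those differences had to separate, and they add no support to the results of the single genes. MMP1 minus TIMP1 was 1.79 and 1.79 in growth medium and -3.54, -2.26 and -2.71 in hypertrophic medium. MMP13 minus TIMP3 was -4.73 and -4.77 against -3.07, -3.53 and -3.17, and MMP2 minus TIMP3 was -0.84 and -1.01 against 0.23, 1.00 and 0.33. MMP2 minus TIMP2 overlapped, with -2.08 and -2.17 against -2.27, -1.73 and -2.17. MMP13 minus TIMP1 was -3.55 and -3.55 against -3.68, -3.87 and -3.50, which also overlapped. Of the 8 differences of the rising members from TIMP1 and TIMP2, MMP11 minus TIMP2 was the exception without overlap, with -4.62 and -4.52 against -4.21, -4.44 and -4.33, a change of 0.25 (exact permutation p = 0.2). These are differences between deposited values of a library and not ratios of proteins.

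Promoter sequences are shown for MMP11, the MMP gene with an entry in the RefSeq promoter table of GRCh38.p14, and for TIMP1 and TIMP3, the inhibitors that moved in opposite directions. MMP1, MMP2, MMP13, MMP19 and TIMP2 had no entry. Each run holds the 250 bases before the gene's start on the plus strand, 5′ to 3′, from chr22:23772599-23772848 for MMP11, chrX:47582186-47582435 for TIMP1 and chr22:32801455-32801704 for TIMP3. Capitals mark matches on either strand to the GC box GGGCGG, and in TIMP1 also to the ETS motif AGGAAG and the RUNX motif TGTGGT.
MMP11: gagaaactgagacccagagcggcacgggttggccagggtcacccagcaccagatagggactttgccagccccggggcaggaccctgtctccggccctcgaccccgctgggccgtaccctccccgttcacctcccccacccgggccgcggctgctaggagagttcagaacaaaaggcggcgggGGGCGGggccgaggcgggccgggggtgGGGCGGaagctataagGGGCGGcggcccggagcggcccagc
TIMP1: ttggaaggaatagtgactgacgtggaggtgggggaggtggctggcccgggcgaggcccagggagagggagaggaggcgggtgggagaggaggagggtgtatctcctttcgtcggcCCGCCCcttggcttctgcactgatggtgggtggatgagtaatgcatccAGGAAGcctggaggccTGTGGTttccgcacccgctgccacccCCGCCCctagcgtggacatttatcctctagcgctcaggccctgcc
TIMP3: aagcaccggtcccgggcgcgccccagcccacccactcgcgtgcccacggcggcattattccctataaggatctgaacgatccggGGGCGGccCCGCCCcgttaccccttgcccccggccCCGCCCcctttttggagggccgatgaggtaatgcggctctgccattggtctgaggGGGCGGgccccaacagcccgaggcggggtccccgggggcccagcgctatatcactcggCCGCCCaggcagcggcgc

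MMP11 held 3 GC boxes, at positions -68, -41 and -25 by their first base before the start, and no match to the AP-1 motif TGANTCA, the ETS motif, the RUNX motif or the TATA box TATAAA. TIMP1 held 2 GC boxes with an ETS match at -87 and a RUNX match at -71, and TIMP3 held 5 GC boxes and none of the other motifs. No 2 matches overlapped. Of the 35116 promoters in the table, 42.6% held a GC box within the same 250 bases, 28.7% the ETS motif, 10.98% the RUNX motif, 10.7% the TATA box and 6.57% the AP-1 motif. A match is a run of letters and not a measured binding site.

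Genes of the plasminogen system and other activators of MMP proenzymes changed in both directions, with 2 higher and 2 lower among the 4 listed of 14, against 62.5% and 36.5% of all listed genes. PLAU, the urokinase that turns plasminogen into plasmin, fell by 0.62 (adjusted p = 0.00327, limma). SERPINE2, a secreted inhibitor of serine proteases, rose by 0.98, and HTRA1, a secreted serine protease that cuts matrix proteins, rose by 2.08 from 10.97 and 10.98 to 13.27, 12.84 and 13.05 in replicates 1, 2 and 3. Of the matrix and MMP receptors, 3 of 11 were listed, 2 higher and 1 lower, against the same shares. LRP1, the endocytic receptor that clears MMP13 among other proteases, rose by 0.92, the collagen receptor DDR1 rose by 0.62, and the hyaluronan receptor CD44 fell by 0.63. Under median centring DDR1 had an adjusted p of 0.0613 (limma).

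Among matrix substrates, 14 of 30 were listed, 12 higher and 2 lower, against 62.5% and 36.5% of all listed genes. Their median difference was 1.11, against 0.56 for all listed genes. The largest differences were those of the proteoglycan BGN with 2.10, the growth factor binding protein IGFBP3 with 2.09, the proteoglycan VCAN with 1.97 and the glycoprotein TNC with 1.54. Fibronectin, FN1, named here after its values were seen, was among those that fell, with a difference of -0.62. The call for FN1 was lost without growth replicate 1, where its difference was -0.48 with an adjusted p of 0.145 (limma), and with the replicate number as a block, where its adjusted p was 0.181 (limma). FN1 was the gene with the highest value in every library, so quantile normalization set its difference to 0.

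Of 35 transcription factors known to act on MMP promoters, 12 were listed, 9 higher and 3 lower, with a median difference of 0.65. This is close to the listed genes as a whole, of which 62.5% were higher and 36.5% lower with a median of 0.56. The AP-1 genes split. FOS was 8.42 and 8.28 in growth medium and 10.14, 9.65 and 9.52 in hypertrophic medium, which differs by 1.42 on the log2 scale (limma, adjusted p = 0.000295, standard error 0.19). JUN was 12.63 and 12.65 against 11.60, 11.68 and 11.80, which differs by -0.95 (limma, adjusted p = 0.000169, standard error 0.11). ETS2 fell by 0.95 and CEBPD, a factor induced by cytokines and glucocorticoids, rose by 1.59. ATF3, the remaining gene that fell and named after its values were seen, had a difference of -0.79. RUNX2, which drives MMP13 in hypertrophic chondrocytes, was not listed.

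Ligands that are known to raise MMP expression and their receptors moved in different directions. Of 31 such genes, 19 were listed, 10 higher and 9 lower, against 62.5% and 36.5% of all listed genes. The 4 largest differences were decreases. IL1B, the cytokine interleukin 1 beta, was 7.94 and 7.84 in growth medium and 5.27, 5.54 and 5.39 in hypertrophic medium, which differs by -2.49 on the log2 scale (limma, adjusted p = 7.14e-06, standard error 0.15). LIF, CXCL8 and IL6, a cytokine of the interleukin 6 family, a chemokine and interleukin 6 itself, had differences of -2.36, -2.33 and -2.17. Divided by role after the values were seen, 9 of the 11 listed ligands fell, with TGFB1 and TGFB3 as the exceptions, and all 8 listed receptors rose, against the same 36.5% lower and 62.5% higher. IL1R1, the signaling receptor of interleukin 1 and also named after its values were seen, rose by 1.47. After median centring the same numbers of ligands passed the test, 9 lower and 2 higher, and 5 of the 8 receptors did.

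**Figure D5:**
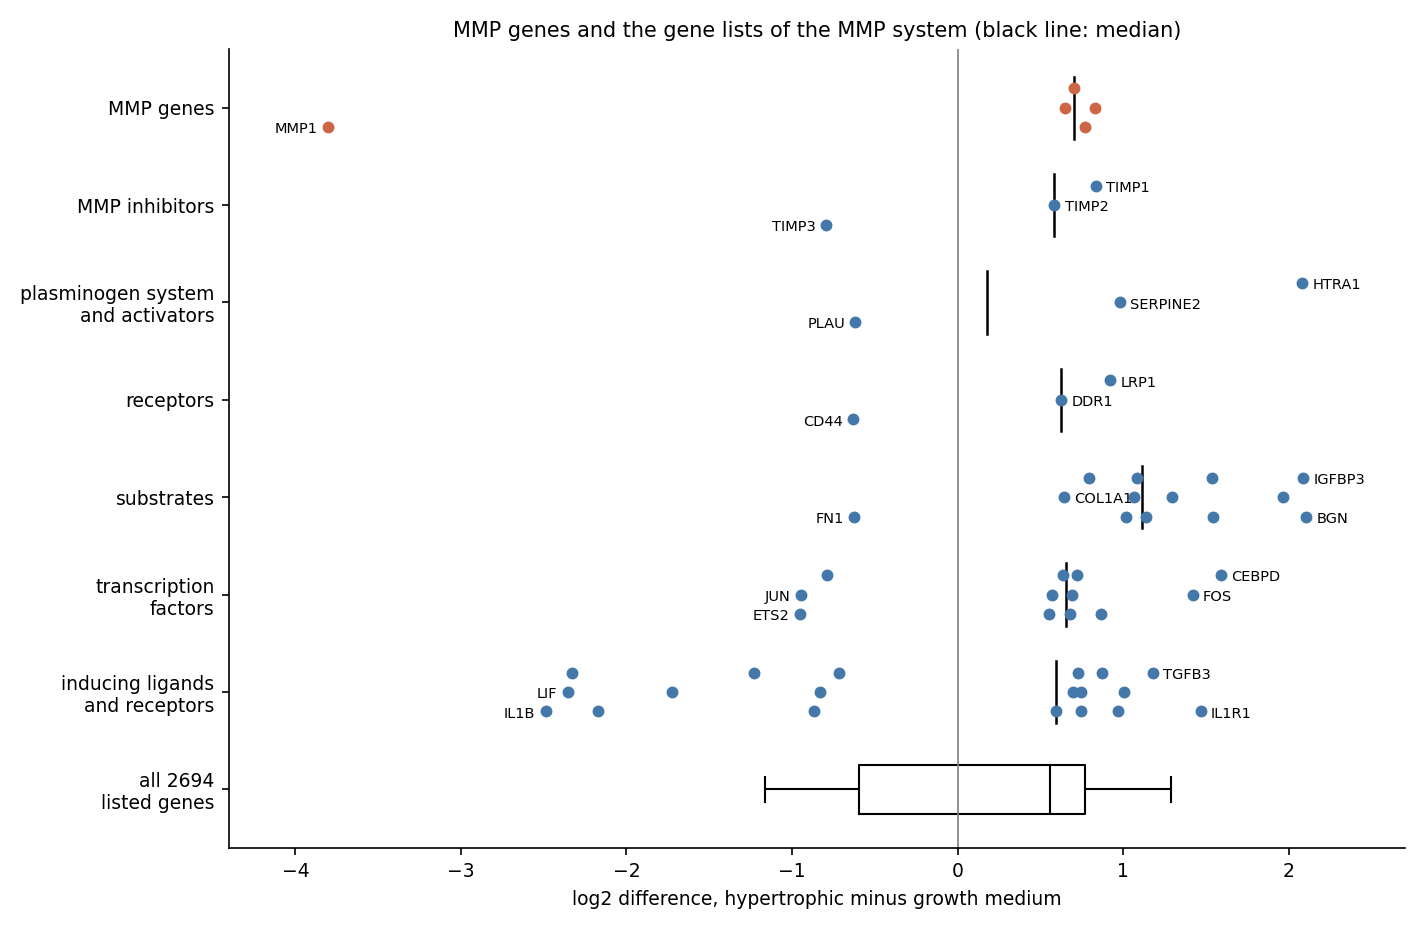
Log2 differences between the media for the 5 MMP genes (orange) and the listed genes of each gene list (blue), with the outermost genes drawn named and black lines for the medians of the whole lists. Genes that are not reported here are not drawn. The box at the bottom holds all 2694 listed genes (quartiles, with whiskers at the 5th and 95th percentile), and MMP1 at -3.80 lies to the left of every gene shown.

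Likeness of pattern was measured as the Euclidean distance over the 5 libraries after the growth medium mean of each gene was subtracted. For MMP1 the nearest listed genes were ANKRD1, KRT81 and KRT87P at distances of 1.06, 1.41 and 1.62. The distance is not scaled for the size of a difference, and MMP1 had the largest decrease of the listed genes, which lengthens its distances to all others. KRT81 and the pseudogene KRT87P are similar in sequence and their separate values are uncertain. For MMP13 the nearest were COLGALT2, SPTSSA and NNMT at 0.11, 0.16 and 0.17, and for MMP2 they were SYVN1, ZNF469 and LAMA5 at 0.19, 0.20 and 0.23. For MMP11 they were SLC7A8, S1PR2 and ZFP36 at 0.084 to 0.10, and for MMP19 FAM78A, MEIS1 and PROS1 at 0.060 to 0.086. The members themselves were farther apart than this, from 0.34 between MMP11 and MMP19 to 8.05 between MMP1 and MMP11. With 5 libraries and many rising genes, short distances are common, and nothing follows from them about shared control.

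The labelled cell type was checked against marker genes as far as they were listed. Of 16 chondrocyte markers 5 were listed, including SOX9, COL2A1 and ACAN, and all 5 rose, where 62.5% of all listed genes did, with a summed level (log2 of the summed linear values) of 12.03 to 12.06 in growth medium and 12.80 to 13.17 in hypertrophic medium. Of 11 hypertrophic chondrocyte markers, MMP13, PTH1R and VEGFA were listed. MMP13 and PTH1R rose and VEGFA fell, while RUNX2, IHH and COL10A1 were not listed. Their summed level, in which VEGFA weighs most, was lower in hypertrophic medium, with 13.06 and 13.06 in growth medium against 12.56, 12.32 and 12.20 in replicates 1, 2 and 3, the opposite direction to the chondrocyte sum. Of 8 fibroblast markers 5 were listed and rose, against the same 62.5%, with a summed level of 17.87 to 18.01 against 18.56 to 18.96. The macrophage and endothelial markers had 2 listed genes each, 1 higher and 1 lower, against 62.5% and 36.5% of all listed genes, with PTPRC, PECAM1 and VWF not listed. The summed macrophage level, from CD14 and CSF1R, was 8.25 to 8.47 against 9.10 to 9.53, and the endothelial level, from CDH5 and TEK, 8.47 to 8.48 against 8.05 to 8.37. The part of these markers in the MMP differences was not tested.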

How the data were processed

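Total RNA of TC28a2 cells was sequenced in 5 libraries, 2 from growth and 3 from hypertrophic medium. By the methods of the paper, the authors trimmed the reads, aligned them to hg19 with HISAT2, counted known NCBI transcripts with StringTie, left out genes that had zero counts, and deposited log2 values after RLE normalization. The submitters' processing notes instead name TopHat2 2.0.13, Cuffdiff 2.2.1 and a rat genome build, and which steps made the values is unsettled here. Depth is unknown from log2 values, and precision rests on 2 and 3 libraries.

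A linear model of the medium without a block was fitted to all 2694 genes in R 4.3.3 with limma 3.58.1 (eBayes, trend by mean level), with Benjamini-Hochberg adjustment, after the fit was tested on simulated data. Within-library differences were compared by exact permutation over the libraries, two-sided on the absolute difference of means. Coordinates are from GENCODE 44 lifted to GRCh37, and promoters from RefSeq on GRCh38.p14. The members and gene lists were chosen with earlier results of these data known. The text names the members, up to 4 genes of each list with the largest differences and those not passing the test, the MMP genes of the chromosome 11 stretch, and the 3 nearest genes of each member, and other names are marked or serve as markers. Alternatives were median centring, quantile normalization, eBayes without a trend, the replicate block, each library left out in turn and other thresholds. Other steps used Python 3.11.15, pandas 2.3.3, scipy 1.17.1 and matplotlib 3.10.9. Protein sequences were not used here, and the values of some list genes are not reported here although the lists' counts and medians include them.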

Additional observations from a re-analysis of the deposited data

How the results depend on the processing

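Of 245 values recomputed under the alternatives, 225 kept their direction and their side of the threshold, or stayed within 1.5 times for counts, and none reversed. MMP2 fell short of the threshold at 0.30 under median centring, at 0.28 under quantile normalization and at 0.60 without growth replicate 2, and MMP13 at 0.35 under median centring. Leaving out any 1 library gave differences from -4.03 to -3.64 for MMP1, 0.43 to 0.82 for MMP2, 0.71 to 0.95 for MMP11, 0.51 to 0.85 for MMP13 and 0.71 to 0.83 for MMP19, and 3 to 4 MMP genes were higher. Under median centring 2 MMP genes, 1 inhibitor and 1 of the MMP and matrix receptors were higher, as were 845 listed genes against 1683. By more than 2, 28 listed genes were higher and 29 lower. These numbers were 12 and 58 under median centring, 13 and 46 under quantile normalization, 318 and 190 at a fold change of at least 2 with a raw p under 0.05, and 17 to 32 and 29 to 31 with a library left out (17 without hypertrophic replicate 1). Median centring subtracts the same 0.35 from every difference, and 1707 of the listed genes it centres on had a higher mean. Of the 2 substrates that fell, 1 passed under quantile normalization, the replicate block and without growth replicate 1 (1 to 2 with a library left out).

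Replicate numbers 1 and 2 occur in both media, but same-numbered libraries did not deviate together (correlation across genes -0.025). Replicate 3 occurs only in hypertrophic medium, so the block takes it out of the estimate. The differences under the block therefore equal those without hypertrophic replicate 3. These settings are not separate alternatives for a difference. With the replicate block the differences were -3.73 for MMP1, 0.82 for MMP2, 0.95 for MMP11, 0.74 for MMP13 and 0.77 for MMP19. MMP1 minus MMP13 changed by -4.47. MMP25-AS1 passed the test (1 gene) under the block and without hypertrophic replicate 3, and otherwise did not (0 to 1 with a library left out). The lone growth library left by leaving out the other was assumed to vary like the rest.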

Other observations

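MMP25-AS1, an antisense lncRNA that overlaps the MMP25 gene, was the sixth listed symbol that begins with MMP. It had values of 6.07 and 6.03 in growth medium and 6.73, 6.52 and 6.04 in hypertrophic medium replicates 1, 2 and 3, and hypertrophic replicate 3 lay between the growth medium libraries. Its adjusted p was 0.089 (limma), so it did not pass the test, and its partner MMP25 was not listed.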
